A study of Mus musculus with 4 samples.

Results

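Conventional type 1 dendritic cells (cDC1) were examined in single-cell RNA libraries of subcutaneous Pan02 tumours. They were taken as barcodes with at least 200 detected genes, at most 20% mitochondrial UMIs, at least 2 UMIs of Xcr1 and Clec9a together, at least 3 UMIs of H2-Ab1, at most 2 UMIs of C1qa, C1qb and C1qc together, and no UMI of Cd3d, Cd3e or Cd3g. This rule found 217 of 63443 kept cells: 40 in the anti-PD-1 library, 41 in the anti-LIF library, 52 in the combo library and 84 in the control library. The members were chosen by these measured values, so their Xcr1, Clec9a, H2-Ab1, C1q and Cd3 levels are description only. All mice were female C57BL/6, 6 to 7 weeks old, and carried Pan02 cells, a mouse pancreatic cancer line, injected under the skin of the flank. Treatment began at a tumour size of about 50 mm3 and was given 3 times a week: anti-PD-1 (antibody against the checkpoint receptor PD-1), anti-LIF (antibody against the cytokine leukaemia inhibitory factor), both antibodies (combo), or IgG alone as named by the control library's treatment label. The samples' cell type label names Pan02 cells, and the libraries hold immune and stromal cells of the tumour as well. Libraries were made from dissociated tumour with a kit that reads the 3′ ends of transcripts. The protocol text of every library names 200 µg of anti-PD-1 with 25 mg/kg of IgG or anti-LIF, and it does not give the exact injections of the single-antibody and control mice. Each group was 1 library in which 3 samples were combined, so animals cannot be separated and no difference between treatments was tested. The sources used here do not say which library was run on which of the 2 named sequencers, nor which suspensions had DNase treatment or dead-cell removal. These steps and the treatment therefore cannot be told apart.

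cDC1 are a rare dendritic cell lineage that depends on the transcription factors IRF8 and BATF3 and on the growth factor receptor FLT3. They take up material of dying cells, partly through the receptor CLEC9A, and load its peptides onto MHC class I for CD8 T cells, a process called cross-presentation. The chemokine receptor XCR1 binds XCL1, which NK cells and activated CD8 T cells secrete. In mouse tumours, cDC1 are known as a source of IL-12 and of the T cell attracting chemokine CXCL9.

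The 4 libraries held 15046 to 20393 barcodes and 57720774 to 111164731 UMIs, and 91.4% to 94.7% of barcodes were kept. Members had median UMI counts of 4570.5 in anti-PD-1, 4400 in anti-LIF, 6720 in combo and 5551.5 in control, and their summed UMIs were 206358 in anti-PD-1, 214722 in anti-LIF, 373044 in combo and 520468 in control. Levels are in CPM, the UMIs of a gene scaled by the summed UMIs of all cells of a gate in a library. Pairs of libraries shared 277 to 392 barcode sequences, 15 member barcodes also occurred in another library, and no barcode was a member in 2 libraries. RNA of other cells was present among the members. The fibroblast markers summed to 659 to 3351 CPM and were seen in 47.6% to 75.0% of members. In each library 1 cell held 49.5% to 67.9% of these UMIs. The T cell markers stood at 5.36 to 38.4 CPM, the macrophage markers at 25.0 to 174 CPM and the NK markers at 0 to 1.92 CPM. The T cell list includes the Cd3 genes and the macrophage list the C1q genes, so the rule itself holds both sums down. Lists of related cells were present too: the monocyte markers summed to 638 to 2767 CPM (67.5% to 88.5% of members), the cDC2 markers to 1108 to 1316 CPM (75.0% to 95.1%) and the mature dendritic cell markers to 295 to 1076 CPM (69.2% to 88.1%). Of the monocyte marker UMIs, 1 cell held 86.5% in anti-PD-1, 40.1% in anti-LIF, 34.7% in combo and 47.0% in control. The cDC2 list includes Klf4, which did not pass the test against cDC2 given below, so its sum does not measure cDC2 RNA alone. Doublets were not removed.

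The label was checked against markers outside the rule. Irf8 had 1148 CPM in anti-PD-1, 894 in anti-LIF, 1225 in combo and 1128 in control, and Flt3 had 485 CPM in anti-PD-1, 466 in anti-LIF, 367 in combo and 305 in control. Both were present in all 4 sums. Batf3, the partner of IRF8 in this lineage, was sparse, with 24.2 CPM in anti-PD-1, 23.3 in anti-LIF, 18.8 in combo and 11.5 in control. Cd209a, the gene that defines the cDC2 gate, was at 0 in the anti-PD-1, combo and control members and at 4.66 CPM in the anti-LIF members, and Csf1r, the receptor of macrophage growth factor, was at 1.92 to 9.69 CPM. Xcr1 was detected in 37 of 40 members in anti-PD-1, 32 of 41 in anti-LIF, 45 of 52 in combo and 73 of 84 in control. Clec9a was detected in 33, 38, 47 and 74 members of the same libraries, and the median of their summed UMIs per cell lay between 3 and 5. Just inside the threshold, the 11 combo and 21 control cells with exactly 2 such UMIs had 996 and 1052 CPM of Irf8 and no Cd209a. Just outside it, the 24 combo and 41 control cells with 1 such UMI that passed every other limit had 1043 and 705 CPM of Irf8, with 487 and 6.72 CPM of Cd209a. In anti-PD-1 and anti-LIF, cells with 2 such UMIs had 596 (11 cells) and 1585 CPM (13 cells) of Irf8 and no Cd209a, and those with 1 had 392 (22 cells) and 1170 CPM (27 cells), with 50.1 and 226 CPM of Cd209a. Cells with 1 such UMI thus included cells with cDC2 RNA in the treated libraries.

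The frequency of cDC1 in the treated tumours was compared with that in the control tumour library. cDC1 made up 0.278% of kept cells in anti-PD-1 (exact Clopper-Pearson 95% interval 0.199 to 0.378), 0.293% in anti-LIF (0.210 to 0.397), 0.317% in combo (0.237 to 0.416) and 0.451% in control (0.360 to 0.558). All 3 treated shares lay below the control share, and their intervals overlapped its interval. The log2 ratio of the share over control was -0.70 under anti-PD-1 (-1.28 to -0.14), -0.62 under anti-LIF (-1.20 to -0.07) and -0.51 under combo (-1.03 to 0.01). These intervals cover counting error only and not the spread between mice. Among gated dendritic cells, the gap was wider. cDC1 were 25.0% of them in anti-PD-1 (18.5 to 32.4), 13.8% in anti-LIF (10.1 to 18.3), 16.1% in combo (12.3 to 20.6) and 57.1% in control (48.7 to 65.3). The other gated dendritic cells were cDC2 (at least 2 UMIs of Cd209a, none of Xcr1 and Clec9a) and mature dendritic cells (at least 3 UMIs of Ccr7 and Fscn1 together, and at least 1 of each). The denominator differed between libraries as well. cDC2 made up 0.730% of kept cells in anti-PD-1, 1.56% in anti-LIF, 1.39% in combo and 0.236% in control, so that there were 0.381, 0.188 and 0.228 cDC1 per cDC2 with anti-PD-1, anti-LIF and combo, against 1.91 in control. C1q macrophages were also scarcest in the control library, with 12.99%, 11.4% and 13.5% of kept cells with anti-PD-1, anti-LIF and combo and 1.88% in control.

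**Figure D1:**
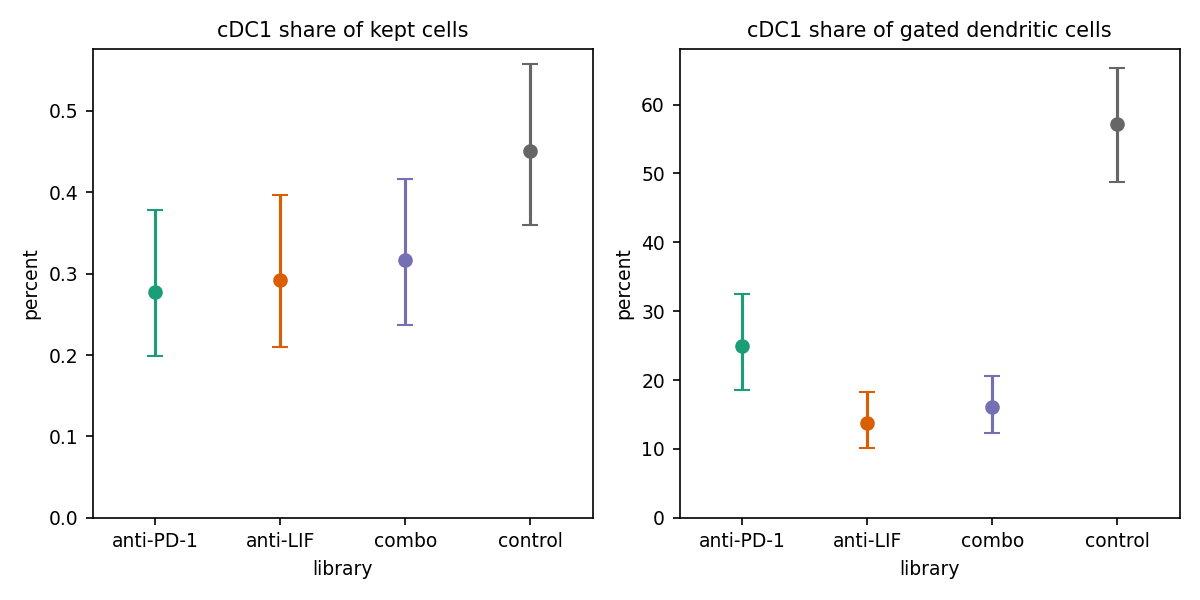
cDC1 as a percentage of kept cells (left) and of gated dendritic cells (right) in each library, with exact Clopper-Pearson 95% intervals for counting error only. The control point is the highest in both panels, at 0.451% and 57.1%, and its interval is clear of the others only in the right panel.

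The share depended on the limits on C1q and Cd3. These were lifted only together, so the part of each was not tested. In the control library 206 barcodes had at least 2 UMIs of Xcr1 and Clec9a and 110 of them had a Cd3 UMI, against 9 of 70 in anti-PD-1, 3 of 51 in anti-LIF and 6 of 69 in combo. More than 2 C1q UMIs were held by 21 of these barcodes in anti-PD-1, 7 in anti-LIF, 11 in combo and 16 in control. Cells with at least 2 Cd3 UMIs numbered 1602 in anti-PD-1, 1007 in anti-LIF, 1382 in combo and 6575 in control. With no limit on C1q and Cd3, a setting chosen after seeing the data, the shares were 0.479% in anti-PD-1, 0.357% in anti-LIF, 0.403% in combo and 1.08% in control. The direction was the same for each treatment, and the log2 ratios over control became -1.17, -1.60 and -1.42 under anti-PD-1, anti-LIF and combo.

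cDC1 were set against cDC2 of the same libraries to see which genes set the lineages apart. cDC1 held more RNA of their identity genes, of genes that supply peptides to MHC class I, of the receptors Flt3, Kit, Cxcr3 and Btla, of Il12b and of several replication genes. They held less RNA of Fc receptors and most lectins, of class II processing enzymes, of Lifr, and of inflammatory cytokines such as Il1b. The chains of MHC class I and class II themselves did not pass the test. Sums of UMIs per gate and library were tested with edgeR's quasi-likelihood test with the library as a block and Benjamini-Hochberg adjustment. SD means the spread of the 4 within-library log2 differences, which holds treatment and animal differences together. Of 5704 genes tested, 1093 (19.2%) passed an adjusted p of 0.05, of which 480 (8.42%) were higher and 613 (10.7%) lower in cDC1. Without the anti-LIF or the combo library 313 genes were higher, and without the anti-PD-1, anti-LIF or combo library 386, 385 or 367 were lower. DESeq2 called 317 higher. Genes used in a gate are left out of all counts. A listed gene that is low in 1 gate could pass the filter on low counts only through the other, so the counts below describe tested genes and not whole lists. Each list count against cDC2 stands beside the 8.42% higher and 10.7% lower over all tested genes.

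All 21 tested genes of the cDC1 identity list were higher in cDC1, with a median log2 fold change of 3.28 against -0.00 over all tested genes. The list holds 28 names, of which 26 are in the files; 2 of these are gate genes, 21 were tested and the rest did not pass the filter on low counts. Irf8, the lineage transcription factor, had 1148, 894, 1225 and 1128 CPM in cDC1 of the anti-PD-1, anti-LIF, combo and control libraries, against 164, 75.8, 117 and 128 CPM in their cDC2 (log2 fold change 3.24, SD 0.33, edgeR adjusted p 7.37e-06). Cadm1, an adhesion molecule, had 426, 172, 306 and 349.7 CPM in these cDC1 and 10.3, 7.58, 10.6 and 6.09 CPM in the cDC2 (log2 fold change 4.92, SD 0.40, edgeR adjusted p 7.37e-06). No cDC1 sum overlapped a cDC2 sum for either gene. Itgae, the integrin chain CD103, had 562, 317, 255 and 242 CPM in cDC1 and 20.6, 8.85, 1.77 and 18.3 CPM in cDC2 (log2 fold change 5.20, SD 1.39, edgeR adjusted p 2.70e-05). Tlr3, the endosomal sensor of double-stranded RNA, stood at 121, 93.1, 77.7 and 46.1 CPM in cDC1 and 5.14, 3.79, 0.883 and 6.09 CPM in cDC2 (log2 fold change 4.76, SD 1.45, edgeR adjusted p 1.06e-04). Itgae and Tlr3 were highest in the anti-PD-1 and lowest in the control members, and every cDC1 value was above every cDC2 value. The lysosomal enzymes Naaa and Ppt1, an amidase and a thioesterase, averaged 2672 ± 371 CPM and 1746 ± 478 CPM in cDC1 (SD, n = 4 libraries), against 630.2 ± 109 CPM and 141 ± 34.0 CPM in cDC2, with log2 fold changes of 2.10 and 3.59. Id2, a helix-loop-helix factor of the lineage, had the smallest called difference of the list at 0.80 (edgeR adjusted p 0.0037). Of the cDC2 markers, 9 of 10 tested were lower in cDC1, among them Sirpa (-4.58), Itgam (-4.77) and the transcription factor Irf4 (-5.29), while Klf4 was not called (724 ± 135 CPM in cDC1, 948 ± 325 CPM in cDC2).

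**Figure D2:**
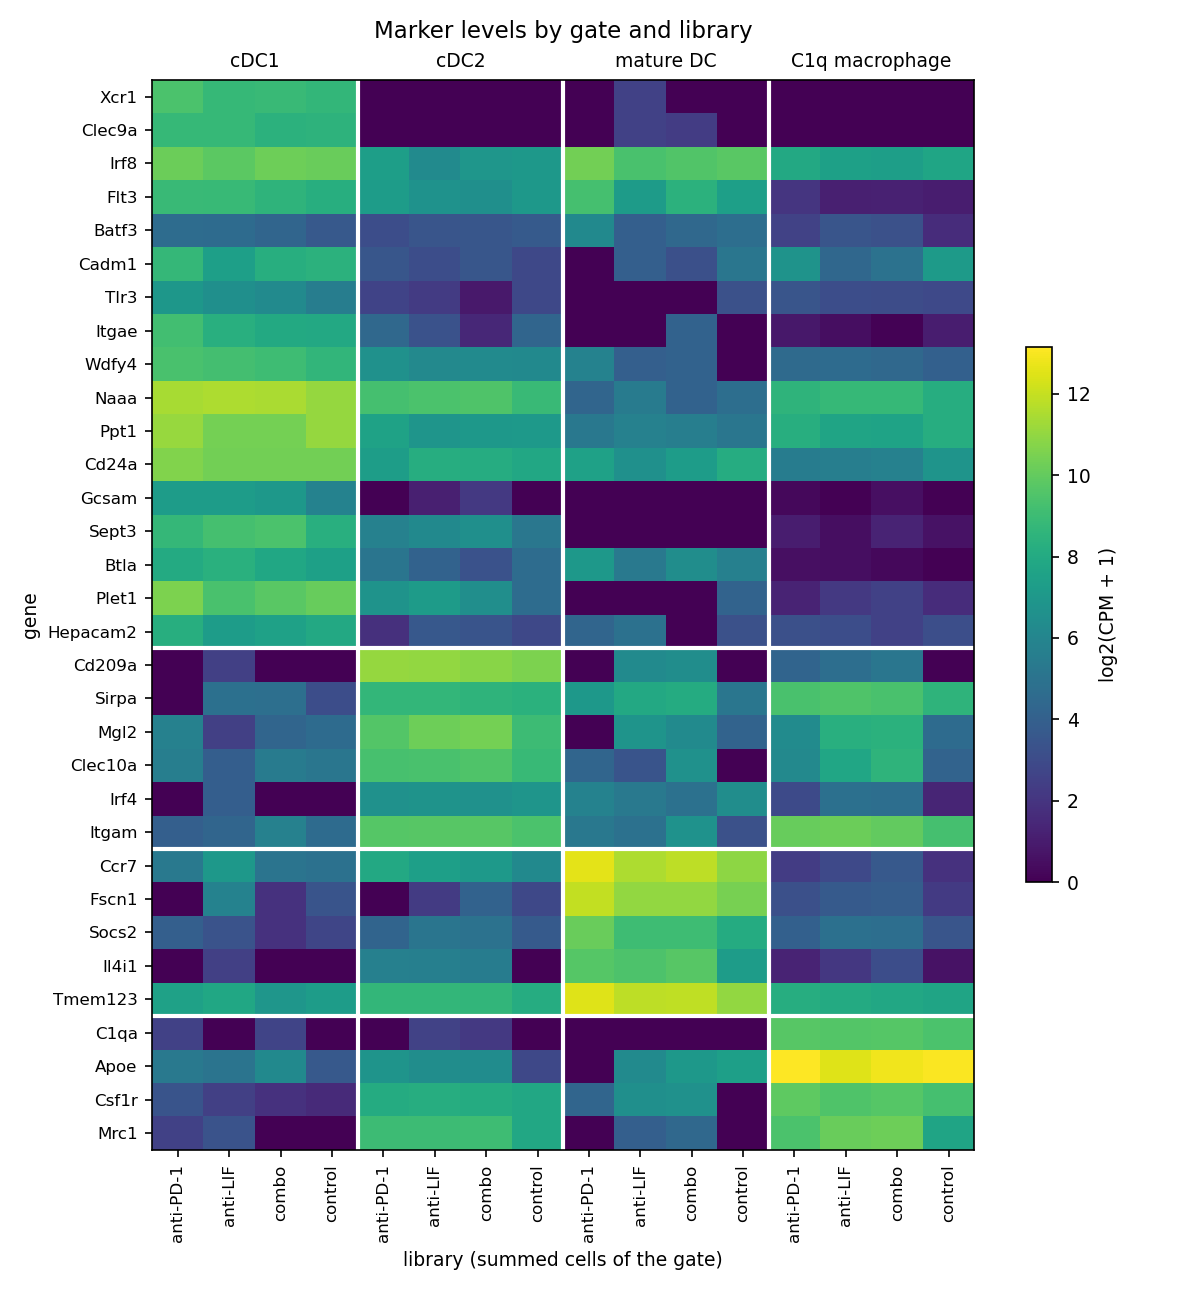
Levels of marker genes as log2(CPM + 1) in the summed cells of 4 gates, with 1 column per library, where rows are grouped as cDC1, cDC2, mature dendritic cell and macrophage markers. Most cDC1 rows are high in the 4 cDC1 columns, but Batf3 is sparse there. Irf8 and Flt3 are also high in mature dendritic cells, where the identity genes Naaa, Ppt1 and Wdfy4 are low.

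Peptide supply to MHC class I differed more than the class I molecules themselves. Of 20 tested genes of MHC class I and cross-presentation, 8 were higher in cDC1, 1 was lower and 11 were not called, with a median log2 fold change of 0.37. Wdfy4, a protein that mouse cDC1 need for cross-presentation, had 654, 596, 531 and 394 CPM in cDC1 of the anti-PD-1, anti-LIF, combo and control libraries and 97.7, 72.1, 76.0 and 73.1 CPM in their cDC2 (log2 fold change 2.79, SD 0.28, edgeR adjusted p 7.95e-06). Tap1, a chain of the peptide transporter into the endoplasmic reticulum, had 789.9, 689, 555 and 892 CPM in cDC1 and 221, 221, 249.98 and 305 CPM in cDC2 (log2 fold change 1.55, SD 0.29, edgeR adjusted p 2.22e-04). Psmb9, an immunoproteasome subunit, had 407, 433, 369.9 and 375 CPM in cDC1 and 147, 72.1, 78.6 and 97.5 CPM in cDC2 (log2 fold change 2.08, SD 0.47, edgeR adjusted p 1.27e-04). In all 3 genes the lowest cDC1 sum was above the highest cDC2 sum. The other transporter chain Tap2 (1.41), the immunoproteasome subunit Psmb8 (1.15), the proteasome activator Psme1 (1.17), the small GTPase Rab43 (1.41) and the class I transactivator Nlrc5 (0.95) were also higher on the log2 scale. H2-K1 averaged 2455 ± 666 CPM in cDC1 and 2867 ± 182 CPM in cDC2, H2-D1 3127 ± 544 CPM and 3720.3 ± 249 CPM, and B2m 4236 ± 1229.8 CPM and 4726 ± 475 CPM. These chains of the class I molecule did not pass the test (edgeR adjusted p 0.282 for H2-K1, 0.197 for H2-D1 and 0.482 for B2m). Cybb, the catalytic subunit of the phagosomal NADPH oxidase, was the gene of the list that was lower, with 0, 37.3, 61.7 and 7.69 CPM in cDC1 and 522, 482, 485 and 512 CPM in cDC2 (log2 fold change -4.24, SD 2.20, edgeR adjusted p 4.72e-04).

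**Figure D3:**
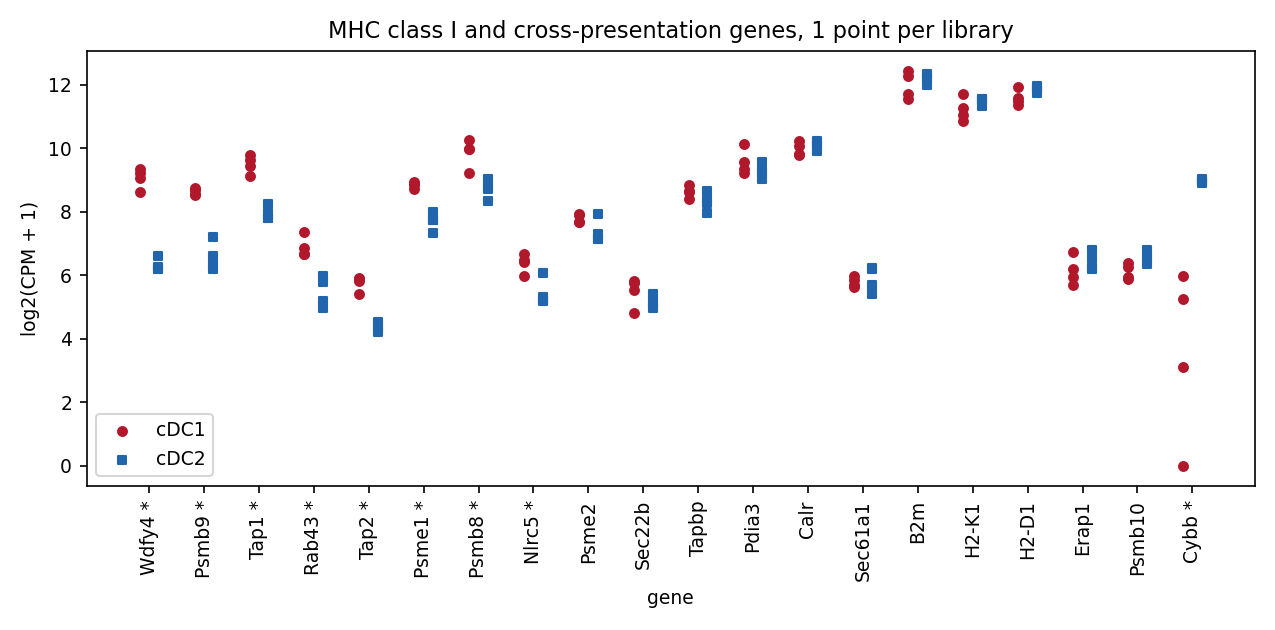
Level of each MHC class I and cross-presentation gene as log2(CPM + 1), with cDC1 (circles) left of cDC2 (squares) and 1 point per library, and a star where edgeR's adjusted p was under 0.05. Wdfy4, Psmb9 and Tap1 separate fully, H2-K1, H2-D1 and B2m overlap, and Cybb is starred and lower in cDC1.

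Tap1 and Psmb9 lie head to head on mouse chromosome 17 (Tap1 at chr17:34187556-34197225, Psmb9 at chr17:34182030-34187330, build GRCm38), so the window around the Tap1 start is shown as the stretch that both genes share. RefSeq's promoter windows, 250 bases before to 50 after the start, were taken on build GRCm38.p6. The Tap1 window is chr17:34187306-34187605 on the plus strand, and 275 of its 300 bases are also in the Psmb9 window on the minus strand. Gpr141b, an orphan G protein-coupled receptor gene, is shown because its difference from cDC2 is among the largest, with 145, 130.4, 155 and 98.0 CPM in cDC1 of anti-PD-1, anti-LIF, combo and control and 0, 0, 1.77 and 0 CPM in their cDC2. Its window is chr13:19732902-19733201 on the minus strand. Capitals mark a CCAAT match and a CCGCCC match in Tap1, and a match of GAAA, any 2 bases, GAAA, the half-sites of an interferon response element, in Gpr141b.
Tap1 promoter: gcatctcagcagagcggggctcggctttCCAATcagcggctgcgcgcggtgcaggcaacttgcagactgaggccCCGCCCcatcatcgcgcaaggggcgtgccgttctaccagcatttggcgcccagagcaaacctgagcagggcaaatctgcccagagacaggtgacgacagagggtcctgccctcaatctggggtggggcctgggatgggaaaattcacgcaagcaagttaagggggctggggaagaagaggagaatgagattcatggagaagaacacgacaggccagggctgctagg
Gpr141b promoter: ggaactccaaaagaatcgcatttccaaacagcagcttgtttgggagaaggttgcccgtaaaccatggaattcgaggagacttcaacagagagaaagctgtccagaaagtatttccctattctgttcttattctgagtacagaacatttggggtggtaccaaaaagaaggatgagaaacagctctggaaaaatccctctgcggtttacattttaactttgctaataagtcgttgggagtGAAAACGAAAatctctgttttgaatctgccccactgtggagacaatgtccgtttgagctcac
Both strands of every window were searched. CCAAT occurred in 41.1% of all 27025 promoter windows, 42.2% of those of tested genes, 41.4% of those of genes higher in cDC1 and 37.8% of those of genes lower. CCGCCC occurred in 38.2% of all windows, 71.6% of those of tested genes and 65.8% of those of genes higher in cDC1. The GAAA pair occurred in 3.99% of all windows, 4.69% of those of tested genes, 22 of 389 (5.66%) of those of genes higher in cDC1 and 38 of 473 (8.03%) of those of genes lower. A composite pattern of PU.1 and IRF factors, GGAA, any 2 bases, GAAA, occurred in 3.16% of all windows and 3.24% of those of tested genes. It occurred in 3.60% of those of genes higher and 4.23% of those of genes lower. The AP-1 pattern TGANTCA occurred in 8.97% of all windows, 6.72% of those of tested genes, 7.97% of those of genes higher and 9.30% of those of genes lower. A match describes letters in the window and not a bound site.

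Of 12 tested genes of the class II pathway, 1 was higher in cDC1, 4 were lower and 7 were not called. Over all tested genes 8.42% were higher and 10.7% lower, so the count of higher genes is near that share. H2-Aa and H2-Eb1, chains of the class II molecule, averaged 15485 ± 323 CPM and 12212 ± 939 CPM in cDC1 and 16952 ± 2091 CPM and 12295 ± 1607 CPM in cDC2, and neither passed (edgeR adjusted p 0.471 and 0.963). H2-Ob, a chain of the DM inhibitor DO, was higher (281, 284, 196 and 275 CPM in cDC1 of anti-PD-1, anti-LIF, combo and control, 97.7, 65.7, 77.7 and 91.4 CPM in their cDC2, log2 fold change 1.64, SD 0.34, edgeR adjusted p 3.18e-04). The endosomal enzymes that process antigen and invariant chain were lower in cDC1: the protease Ctss by a log2 fold change of -1.86, the protease Lgmn by -1.60 and the thiol reductase Ifi30 by -1.23. H2-DMb2 was lower too (-0.92, edgeR adjusted p 0.028).

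Uptake receptors fell into separate sets. Of 16 tested genes of this list, 5 were higher and 9 lower in cDC1. The phosphatidylserine receptors Timd4 and Havcr2 (88.8 ± 56.7 CPM and 221 ± 32.3 CPM in cDC1, 19.8 ± 13.7 CPM and 32.0 ± 8.10 CPM in cDC2), the scavenger receptor Cd36, the endocytic receptor Ly75 (DEC-205) and the lectin Clec12a were higher, with log2 fold changes of 2.10, 2.78, 3.23, 3.73 and 2.29. The mannose receptor Mrc1 (-7.30), the lectin Clec4n (-5.76) and the Fc receptor genes Fcgr1 (-3.67), Fcgr3 (-4.12), Fcgr2b (-2.22) and Fcer1g (-3.44) were lower. Of 12 tested pattern receptor genes, 3 were higher and 3 lower. The profilin sensors Tlr11 and Tlr12 were higher beside Tlr3 (3.60 and 3.28), and Tlr1 and Tlr2, which sense bacterial lipoproteins, were lower (-3.73 and -3.73).

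Receptors for growth factors and cytokines were mostly lower or not called. Of 19 tested, 2 were higher, 9 lower and 8 not called. The higher ones were Flt3 (485, 466, 367 and 305 CPM in cDC1 of anti-PD-1, anti-LIF, combo and control, 152, 104, 91.9 and 128 CPM in their cDC2, log2 fold change 1.82, SD 0.41, edgeR adjusted p 1.12e-04) and the stem cell factor receptor Kit (1.27). Lifr, the receptor chain that binds LIF, had 0, 14.0, 18.8 and 3.84 CPM in these cDC1 and 64.3, 65.7, 48.6 and 18.3 CPM in the cDC2 (log2 fold change -2.20, SD 1.52, edgeR adjusted p 0.0129). The anti-PD-1 members held no Lifr UMI, and the other values rest on few UMIs. Its partner chain Il6st had 45.5 ± 12.98 CPM in cDC1 and 74.1 ± 35.2 CPM in cDC2 and was not called (edgeR adjusted p 0.147). The downstream genes Stat3 and Socs3 were lower in cDC1 (-0.74 and -1.81). Of 17 tested transcription factors, 3 were higher and 4 lower. Mycl (3.83), a Myc family member, was higher beside Irf8 and Id2, and Irf4, Zeb2 (-3.66), Tcf4 (-1.43) and Nfil3 (-0.63) were lower.

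Cytokine and chemokine genes gave 1 higher, 7 lower and 11 not called of 19 tested. Il12b, the p40 subunit of IL-12, had 72.7, 69.9, 10.7 and 71.1 CPM in cDC1 of anti-PD-1, anti-LIF, combo and control and 0, 7.58, 0 and 0 CPM in their cDC2 (log2 fold change 4.18, SD 1.12, edgeR adjusted p 0.00231). The combo value was the low one in cDC1, and 3 cDC2 sums held no Il12b UMI. Cxcl9 had 436, 126, 85.8 and 621 CPM in cDC1 and 118, 102, 109.5 and 85.3 CPM in cDC2 and did not pass (log2 fold change 1.14, SD 1.44, edgeR adjusted p 0.134), with the combo value of cDC1 below the whole cDC2 range. Il1b (-1.78), Il1rn (-4.33), Ccl6 (-4.15), Ccl9 (-5.46), Cxcl2 (-1.87), Cxcl10 (-1.43) and Osm (-3.14) were lower in cDC1. Of 13 tested homing receptors, 2 were higher and 8 lower. Cxcr3, the CXCL9 receptor, was higher besides Itgae (4.06), and Ccr2, Ccr1, Cxcr4, Cx3cr1, Gpr183 and Itgam were among those lower. Of 16 tested costimulatory and checkpoint genes, 3 were higher and 7 lower. The inhibitory receptor Btla (262, 326, 228 and 175 CPM in cDC1, 33.4, 16.4, 8.83 and 24.4 CPM in cDC2, log2 fold change 3.85), Havcr2 and Cd86 (0.55) were higher, and Cd80 (-1.18), Cd40 (-1.50), Tnfsf9 (-2.31), Vsir (-1.18), Pvr (-0.79), Lgals9 (-0.94) and Sirpa were lower. Cd274, which encodes PD-L1, was not called (81.9 ± 51.6 CPM in cDC1, 89.2 ± 32.0 CPM in cDC2).

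The genes with the largest differences from cDC2 outside the gates included several with no UMI on 1 side. Ttc39a, a tetratricopeptide repeat gene, had 126, 93.1, 45.6 and 82.6 CPM in cDC1 of anti-PD-1, anti-LIF, combo and control and no UMI in any cDC2 sum, and was at least 66.6-fold higher. Sema4f, a semaphorin gene, had 33.9 to 97.8 CPM against no UMI and was at least 49.6-fold higher. These bounds set 3 UMIs over all cDC2 of the 4 libraries in place of 0. Gpr141b (7.06), Gcsam (5.90), the secreted nuclease Dnase1l3 (5.79), the fatty acid receptor Ffar4 (5.60) and the Ras exchange factor Rasgrp3 (5.26) followed on the log2 scale. On the other side, the mast cell protease gene Cma1 had no UMI in cDC1 and 2.57, 240.2, 179 and 12.2 CPM in cDC2 of anti-PD-1, anti-LIF, combo and control (at least 70.1-fold lower). The lectin Cd209d, the short-chain fatty acid receptor Ffar2, Cd300ld and the neurturin receptor Gfra2 had no UMI in cDC1 either, and were at least 55.7-fold, 30.8-fold, 30.4-fold and 25.7-fold lower. The Cma1 call was lost with DESeq2 (adjusted p 0.0672). The lectins Clec4a1, Clec4a2 and Clec4a3, Mrc1 and Cd7 had fold changes of -7.47, -7.19, -7.35, -7.30 and -6.63 on the log2 scale, with at most 3 UMIs each in all cDC1. Clec4a family members share sequence, and how reads common to them were counted is not given in the sources used here.

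cDC1 held more RNA of cell-cycle genes than cDC2. Of 18 tested genes, 7 were higher and none lower, with a median log2 fold change of 0.78. Pcna, the replication clamp, had 533, 559, 439.6 and 452 CPM in cDC1 of anti-PD-1, anti-LIF, combo and control and 249, 326, 271 and 402 CPM in their cDC2 (log2 fold change 0.70, SD 0.39, edgeR adjusted p 0.0125). Mcm3, a helicase subunit, had 126, 149, 85.8 and 158 CPM in cDC1 and 51.4, 45.5, 54.8 and 79.2 CPM in cDC2 (log2 fold change 1.15, SD 0.45, edgeR adjusted p 0.00708). The cDC1 values of both genes lay above all cDC2 values. Rrm2, Tyms, Mcm6, Pclaf and Birc5 also passed (1.36, 0.96, 0.98, 1.43 and 1.53), while Mki67 (0.49, edgeR adjusted p 0.193) and Top2a (0.72, edgeR adjusted p 0.0952) did not. Of the interferon lists, 3 of 13 type I genes were higher and 3 lower, and 3 of 19 interferon gamma genes were higher and 3 lower.

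Mature dendritic cells, the CCR7-positive state that migrates to lymph nodes, were the next comparison. Cells that passed both gates counted as cDC1 only, so members could include cells in this state. Of 4062 genes tested, 1145 (28.2%) passed, 505 (12.4%) higher and 640 (15.8%) lower in cDC1. This gate held 15, 38, 42 and 19 cells in anti-PD-1, anti-LIF, combo and control, and without the combo library 231 genes were higher and 377 lower, while without the anti-LIF library 307 were higher. Of 19 tested identity genes 16 were higher in cDC1, 2 were not called and Id2 was lower. The median log2 fold change was 4.95, or 4.48 with genes absent on 1 side set at their bound. Irf8 had 1148, 894, 1225 and 1128 CPM in cDC1 of anti-PD-1, anti-LIF, combo and control and 1313, 667, 749 and 875 CPM in mature cells, and Flt3 485, 466, 367 and 305 CPM and 610.2, 145, 350.2 and 172 CPM. The groups overlapped for both genes, and neither passed (edgeR adjusted p 0.251 and 0.254). Batf3, sparse in cDC1 as given above, had 74.0 CPM in anti-PD-1, 14.5 in anti-LIF, 20.4 in combo and 25.7 in control in mature cells. These values rest on 3 to 5 UMIs per library. Naaa had 2689.5, 2976, 2876 and 2144 CPM in cDC1 and 18.5, 43.5, 16.3 and 25.7 CPM in mature cells (log2 fold change 6.59, SD 0.57, edgeR adjusted p 3.32e-06), and Wdfy4 averaged 544 ± 112 CPM and 21.6 ± 23.8 CPM (log2 fold change 4.95). Among the largest differences, Sept3, Gcsam and the cell division gene Cdca3 had no UMI in mature cells and were at least 100.3-fold, 22.3-fold and 15.8-fold higher in cDC1, and Plet1 had a log2 fold change of 7.87. The OX40 ligand gene Tnfsf4 and Nudt17 had no UMI in cDC1 and were at least 45.0-fold and 70.3-fold lower. Apol7c was at least 64.0-fold lower, a call lost with DESeq2 (adjusted p 0.126). The amino acid oxidase Il4i1 (-8.76) and the fatty acid binding protein Fabp5 (-7.63) were lower, with 1 and 11 UMIs in all cDC1.

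All 11 tested mature markers and 15 of 20 cytokine and chemokine genes were lower in cDC1 than in mature cells. Il12b had 72.7, 69.9, 10.7 and 71.1 CPM in cDC1 of anti-PD-1, anti-LIF, combo and control and 925, 614, 219.9 and 1115 CPM in mature cells (log2 fold change -3.73, SD 0.48, edgeR adjusted p 1.90e-05), so that its level in cDC1 lay between that of cDC2 and that of mature cells. Ccl22, a ligand of CCR4, averaged 150.4 ± 157 CPM and 4295 ± 1037 CPM (-5.28), and Cd274 81.9 ± 51.6 CPM and 396 ± 90.7 CPM (-2.35). The cytokine gene that was higher in cDC1 was Cxcl9 (log2 fold change 1.39, SD 1.64, edgeR adjusted p 0.0448), which was higher in 4 of 4 libraries. Of the class I list, 6 genes were higher and 5 lower. Tap1 (0.95) and Psmb9 (1.15) were higher in cDC1, whereas H2-K1, H2-D1 and B2m were lower (-1.15, -0.74 and -1.16). Of 11 class II genes 6 were higher, and the H2-DM chains H2-DMa and H2-DMb1 were higher by 2.09 and 2.76 on the log2 scale. Cell-cycle genes were higher in 13 of 15 tested, with a median of 2.08, and the mitotic gene Ube2c averaged 86.7 ± 61.6 CPM in cDC1 and 6.41 ± 5.23 CPM in mature cells.

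C1q macrophages (at least 10 UMIs of C1qa, C1qb and C1qc, 6029 cells) gave 3057 of 9216 genes called (33.2%), 1260 (13.7%) higher and 1797 (19.5%) lower in cDC1. Identity genes were higher in 22 of 24 tested, Batf3 among them (24.2, 23.3, 18.8 and 11.5 CPM in cDC1 of anti-PD-1, anti-LIF, combo and control, 4.97, 10.05, 8.43 and 2.14 CPM in macrophages, log2 fold change 1.61, SD 0.63, edgeR adjusted p 0.0121), and all 8 tested macrophage markers were lower. Itgae, Btla, Gpr141b, Sept3 and Gcsam had the largest positive log2 fold changes (9.65, 9.55, 9.37, 9.07 and 8.98). Zbtb46, a transcription factor of conventional dendritic cells, averaged 31.0 ± 10.3 CPM and 1.51 ± 0.844 CPM (4.49). Il10, which encodes an inhibitory cytokine, had no UMI in cDC1 and 52.4, 88.2, 109 and 19.2 CPM in macrophages of anti-PD-1, anti-LIF, combo and control (at least 36.4-fold lower). Cd300ld, Tmem37, Klra2 and the proton pump subunit Atp6v0d2 were at least 98.5-fold, 38.9-fold, 20.04-fold and 28.1-fold lower. Il12b was higher in cDC1 (4.07), and Cxcl9 was lower (317 ± 256 CPM in cDC1, 683 ± 399 CPM in macrophages, log2 fold change -1.28). Of 20 tested genes of MHC class I and cross-presentation, 10 were higher in cDC1 than in macrophages, 5 were lower and 5 were not called, with a median of 0.34. The genes described against cDC2 were among them: Tap1 was higher by 1.95, Psmb9 by 2.22 and Wdfy4 by 4.72, with Cybb lower by a log2 fold change of -5.40. The DO chains H2-Oa and H2-Ob were higher (4.99 and 4.98), as was H2-DMb2 (2.95).

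The last comparison was of cDC1 RNA in each treated library with that in the control library. In the anti-LIF and combo members, Cxcl9 stood at 126 and 85.8 CPM against 621 CPM in control, and Ccr2, Fcer1g and Fcgr2b were higher than in control. Il12b was low in combo members, and several cell-cycle genes, though not Pcna, were low in anti-PD-1 members. Irf8 differed little, with log2 ratios of 0.03, -0.33 and 0.12 under anti-PD-1, anti-LIF and combo. With 1 library per group there is no test. A gene counts as past the fold when its log2 ratio of CPM, with 0.5 counts added, is over 1 or under -1 and its 95% counting interval, given in square brackets, excludes 0. All 3 comparisons share the control members. Of 4220 genes measured under anti-PD-1, 147 (3.48%) were higher and 148 (3.51%) lower past the fold. Of 4325 genes under anti-LIF, 310 (7.17%) were higher and 174 (4.02%) lower, and of 4907 genes under combo, 298 (6.07%) were higher and 203 (4.14%) lower. The median log2 ratio of all genes was 0.05 under anti-PD-1, 0.13 under anti-LIF and 0.10 under combo. Many ratios rest on single cells, so the ratio without the cell that holds most UMIs of the gene is given where it matters, an alternative chosen after seeing the data.

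Genes induced by interferon gamma were lower more often than higher in the anti-LIF and combo members. Of 17 measured genes, 2 were higher and 6 lower past the fold under anti-LIF (median -0.59), and of 18 under combo 1 was higher and 5 lower (median -0.68), against 2 higher and 4 lower of 17 under anti-PD-1 (median -0.13). Over all measured genes 3.48%, 7.17% and 6.07% were higher and 3.51%, 4.02% and 4.14% lower under anti-PD-1, anti-LIF and combo. In cDC2 the medians of the same genes were also below 0, at -0.62 under anti-PD-1, -0.47 under anti-LIF and -0.32 under combo. Without the top cell of each gene the counts were 0 higher and 5 lower under anti-LIF, 0 higher and 5 lower under combo, and 2 higher and 2 lower under anti-PD-1. Cxcl9, the CXCR3 ligand, had 436 CPM in anti-PD-1, 126 in anti-LIF, 85.8 in combo and 621 in control. Its log2 ratio was -0.50 [-0.86 to -0.17] under anti-PD-1, -2.28 [-2.93 to -1.74] under anti-LIF and -2.83 [-3.43 to -2.33] under combo. The anti-LIF and combo members were low and the anti-PD-1 and control members high. In cDC2, Cxcl9 stood at 118 CPM in anti-PD-1, 102 in anti-LIF, 109.5 in combo and 85.3 in control, with no such gap, and in C1q macrophages at 965 CPM in anti-PD-1, 396 in anti-LIF, 287 in combo and 1082 in control. Irf1, an interferon-induced transcription factor, had 189 CPM in anti-PD-1, 149 in anti-LIF, 72.4 in combo and 282 in control, and passed the fold under combo (-1.94 [-2.61 to -1.37]). Cd274 had 38.8 CPM in anti-PD-1, 97.8 in anti-LIF, 42.9 in combo and 148 in control, with ratios of -1.85 [-3.19 to -0.88] under anti-PD-1, -0.57 [-1.37 to 0.11] under anti-LIF and -1.75 [-2.66 to -0.996] under combo. Gbp2, a guanylate-binding protein, had 150.2 CPM in anti-PD-1, 60.5 in anti-LIF, 105 in combo and 369 in control, but 1 control cell held 37.0% of its control UMIs, and without the top cell the ratios were -0.61 under anti-PD-1, -1.89 under anti-LIF and -1.14 under combo. Its anti-LIF ratio also turned to 0.25 without members holding 5 or more UMIs of T cell, B cell, cancer, fibroblast, endothelial or neutrophil markers, a setting chosen after seeing the data. The immunoproteasome gene Psmb8 stood higher in the treated members, with 1018 CPM in anti-PD-1, 1239 in anti-LIF, 1016 in combo and 603 in control and ratios of 0.76 [0.50 to 1.01], 1.04 [0.80 to 1.28] and 0.75 [0.53 to 0.97] under anti-PD-1, anti-LIF and combo. The ratio of Cxcl10 changed direction with the gate.

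The genes of MHC class I and cross-presentation seldom passed the fold: none of 19 under anti-PD-1, 1 of 19 under anti-LIF (Psmb8, short of the fold without the top cell) and 1 of 20 under combo (Cybb, with 47.8% of its combo UMIs in 1 cell). These are no more than the shares over all genes. H2-K1 had 2452 CPM in anti-PD-1, 2109.7 in anti-LIF, 1871 in combo and 3387 in control, and B2m had 4933 CPM in anti-PD-1, 3376 in anti-LIF, 3032 in combo and 5601 in control. The B2m ratio was -0.18 [-0.29 to -0.08] under anti-PD-1, -0.73 [-0.85 to -0.61] under anti-LIF and -0.89 [-0.99 to -0.79] under combo. H2-K1 and B2m were lowest in combo and highest in control, with ratios short of the fold. In cDC2 the B2m level was 4752 CPM in anti-PD-1, 5209 in anti-LIF, 4076 in combo and 4868 in control. Of 13 class II genes, 2 were higher under anti-PD-1, 1 under anti-LIF and none under combo. H2-DMa, a chain of the peptide editor DM, had 669 CPM in anti-PD-1, 484 in anti-LIF, 188 in combo and 167 in control, with ratios of 2.00 [1.60 to 2.40], 1.53 [1.11 to 1.96] and 0.17 [-0.31 to 0.64] under anti-PD-1, anti-LIF and combo. The same gene had 514 CPM in anti-PD-1, 598 in anti-LIF, 246 in combo and 213 in control in cDC2 and 291 CPM in anti-PD-1, 343 in anti-LIF, 147 in combo and 125 in control in macrophages, where the anti-PD-1 and anti-LIF values were likewise the high ones. The class II transactivator Ciita passed under anti-PD-1 (1.29 [0.56 to 2.03]).

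**Figure D4:**
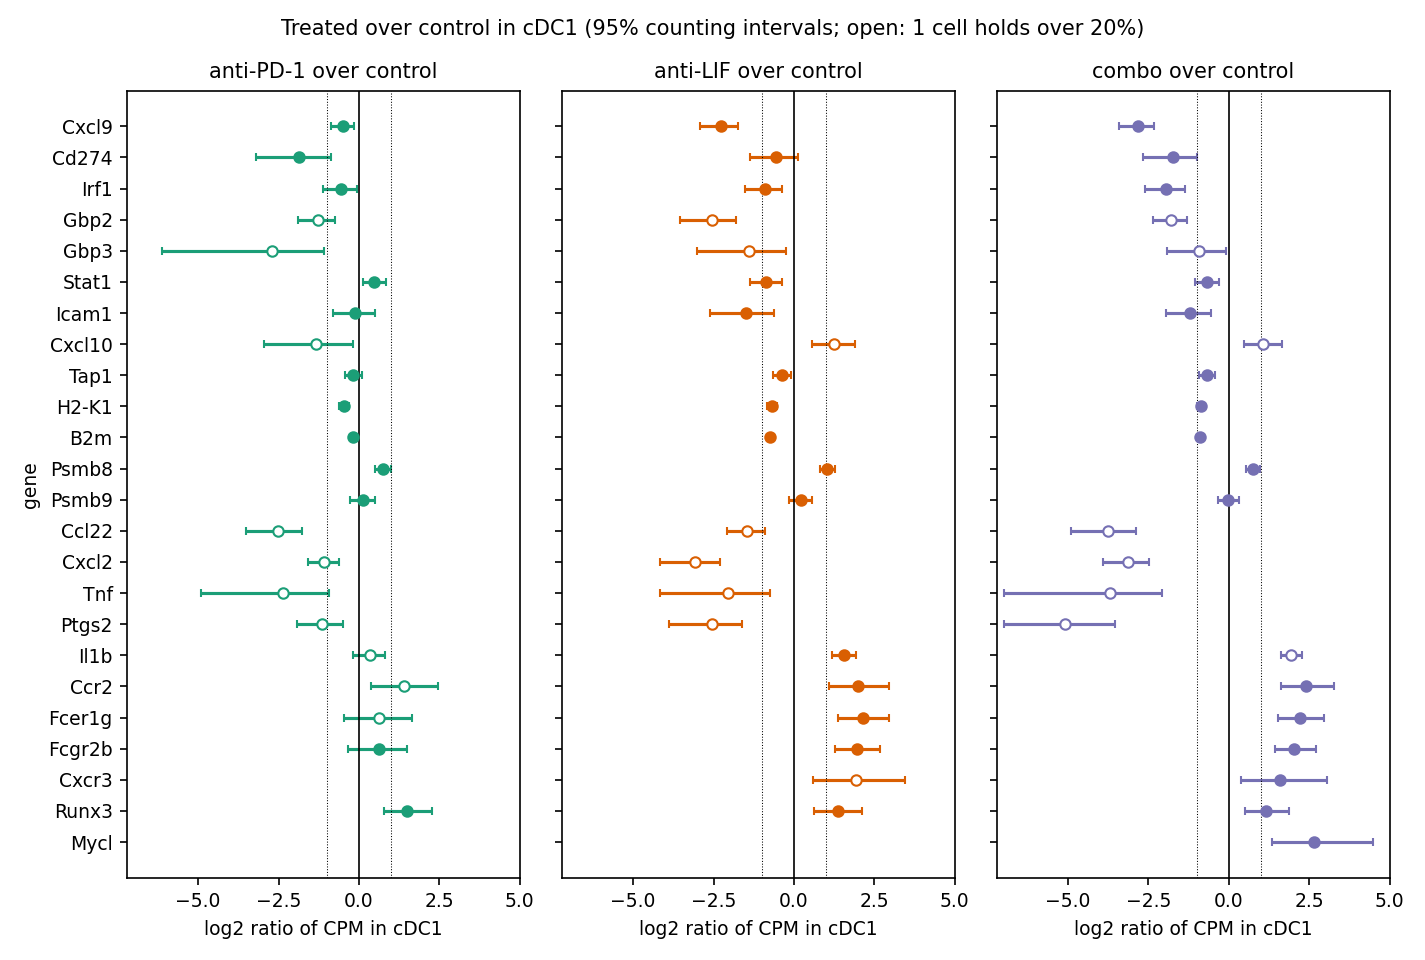
Log2 ratio of CPM in cDC1 of each treated library over control, with 95% counting intervals, for chosen interferon, presentation, cytokine and homing genes, where open points mark ratios in which 1 cell holds over 20% of the UMIs and dotted lines the fold limit. Cxcl9 lies left of the dotted lines under anti-LIF and combo, at -2.28 and -2.83, and between them under anti-PD-1, and Fcer1g and Fcgr2b lie right of them under anti-LIF and combo; genes with under 20 UMIs have no point, and the combo intervals of Tnf and Ptgs2 are cut at the left.

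Of the homing receptors measured, 2 of 8 were higher under anti-PD-1, 4 of 9 under anti-LIF and 4 of 10 under combo, and none was lower. These counts became 0, 3 and 3 without the top cell. Over all measured genes 3.48%, 7.17% and 6.07% were higher under anti-PD-1, anti-LIF and combo. Ccr2, the receptor of monocyte chemokines, had 87.2 CPM in anti-PD-1, 130.4 in anti-LIF, 174 in combo and 32.7 in control. Its ratios were 1.41 [0.38 to 2.46] under anti-PD-1, 1.98 [1.08 to 2.96] under anti-LIF and 2.38 [1.63 to 3.28] under combo, and without the top cell 0.85, 1.70 and 2.25. All 3 treated values were above the control value. Ccr2 was higher over control in cDC2 too, with 442 CPM in anti-PD-1, 523 in anti-LIF, 469 in combo and 201 in control. Cxcr3 had 48.5 CPM in anti-PD-1, 60.5 in anti-LIF, 48.3 in combo and 15.4 in control, with ratios of 1.94 [0.60 to 3.45] under anti-LIF and 1.60 [0.38 to 3.06] under combo. The Fc receptor chain Fcer1g had 67.8 CPM in anti-PD-1, 196 in anti-LIF, 206 in combo and 44.2 in control, and the inhibitory Fc receptor Fcgr2b had 87.2 CPM in anti-PD-1, 224 in anti-LIF, 239 in combo and 57.6 in control. Both passed the fold under anti-LIF (2.13 [1.38 to 2.95] and 1.95 [1.27 to 2.66]) and under combo (2.20 [1.54 to 2.96] and 2.03 [1.44 to 2.70]). Both genes are also abundant in cDC2 and C1q macrophages, where Fcer1g averaged 1261 ± 65.2 CPM and 1960.4 ± 203 CPM, and the part of such RNA in the members was not tested. The macrophage markers of the members summed to 160 CPM in anti-PD-1, 112 in anti-LIF, 174 in combo and 25.0 in control. They were seen in 50.0%, 39.0%, 59.6% and 11.9% of the members of these libraries. These sums rest on 33 UMIs in anti-PD-1, 24 in anti-LIF, 65 in combo and 13 in control, and their list includes the C1q genes that the rule limits. Csf1r stood at 9.69 CPM in anti-PD-1, 4.66 in anti-LIF, 2.68 in combo and 1.92 in control. The transcription factor Runx3 was higher in all 3 treated libraries, with 169.6 CPM in anti-PD-1, 154 in anti-LIF, 134 in combo and 59.6 in control, and its lowest ratio was 1.16 [0.50 to 1.87] in combo.

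Cytokines and chemokines differed from control in both directions. Of 13 measured under anti-PD-1, 1 was higher and 5 lower past the fold. Of 14 under anti-LIF, 3 were higher and 7 lower, and of 16 under combo, 6 were higher and 7 lower. Without the top cell the counts became 0 and 3 under anti-PD-1, 1 and 4 under anti-LIF, and 3 and 6 under combo. Ccl22 had 63.0 CPM in anti-PD-1, 135 in anti-LIF, 26.8 in combo and 377 in control, and 1 control cell held 36.7% of the control UMIs. Without the top cell its ratios were -1.87 under anti-PD-1, -0.80 under anti-LIF and -3.09 under combo. The neutrophil chemokine Cxcl2 had 213 CPM in anti-PD-1, 51.2 in anti-LIF, 50.9 in combo and 455 in control, and without the top cell its ratios were -0.50, -2.51 and -2.54 under anti-PD-1, anti-LIF and combo. Il12b had ratios near 0 in anti-PD-1 (0.06 [-0.94 to 0.93]) and anti-LIF (0.00 [-0.997 to 0.88]), and was low in combo with 10.7 CPM against 71.1 CPM in control (-2.58 [-4.68 to -1.25], or -1.90 without the control cell that held 37.8% of the control UMIs). The summed mature dendritic cell markers of the members were, like Il12b, lowest in combo. They stood at 829 CPM in anti-PD-1, 1076 in anti-LIF, 295 in combo and 1024 in control. In anti-LIF, 1 cell held 57.1% of these UMIs. The list includes Serpinb6b, which had 32.2 CPM in combo and 329 CPM in control members. In cDC2, Serpinb6b had 7.95 CPM in combo and 6.09 CPM in control, so the sum does not measure RNA of mature cells alone. Under combo, 5 of 5 measured genes of that list, which includes Ccl22, lay below 0, with a median log2 ratio of -1.10. Il12b and Ccl22 are abundant in mature cells, and the part of such RNA in these ratios was not tested. Il1b was lowest in control, with 257 CPM in anti-PD-1, 605 in anti-LIF, 785 in combo and 206 in control. In cDC2, Il1b had 2434 CPM in anti-PD-1, 2368 in anti-LIF, 1714 in combo and 384 in control, where the control value was also the lowest.

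Lif, the target of the antibody, had 19.4 CPM in anti-PD-1, 9.31 in anti-LIF, 8.04 in combo and 67.2 in control in cDC1. Its ratios were -1.65 [-3.75 to -0.31] under anti-PD-1, -2.55 [-5.95 to -0.89] under anti-LIF and -2.86 [-5.41 to -1.40] under combo, and the control members were the high ones. All other kept cells together had 88.5 CPM of Lif in anti-PD-1, 44.1 in anti-LIF, 45.2 in combo and 169 in control. Lif was thus lower than control in the treated libraries outside the gate as well, and cDC2 had 17.99 CPM in anti-PD-1, 10.1 in anti-LIF, 8.83 in combo and 6.09 in control. What share of the Lif UMIs in members came from RNA of other cells was not tested.

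Type I interferon genes passed the fold mainly in combo, with 6 of 9 measured higher and 1 lower (4 and 1 without the top cell). They were higher in 1 of 6 under anti-PD-1 and 2 of 6 under anti-LIF, with none lower in these and none past the fold without the top cell, and fewer genes of the list reached the minimum of 20 UMIs there. Isg15 (1.72 [0.59 to 3.07]), Bst2 (1.27 [0.68 to 1.89]) and Ifi205 (1.72 [1.20 to 2.28]) were higher under combo, and Oasl1 was lower (-2.54 [-3.65 to -1.69]). Irf7, the regulator of type I interferon genes, had 87.2 CPM in anti-PD-1, 121 in anti-LIF, 67.0 in combo and 15.4 in control, but 1 cell held 55.6% of the anti-PD-1 UMIs and 1 cell held 69.2% of the anti-LIF UMIs. Identity genes gave 3 higher and none lower of 22 under anti-PD-1, 3 higher and 1 lower of 23 under anti-LIF, and 3 higher and 1 lower of 23 under combo. Leaving out the top cell gave 2 and 0, 1 and 0, and 3 and 1 under anti-PD-1, anti-LIF and combo. Over all measured genes 3.48%, 7.17% and 6.07% were higher and 3.51%, 4.02% and 4.14% lower in the same comparisons. Gcsam was higher in each (1.43 [0.65 to 2.21], 1.46 [0.70 to 2.24] and 1.20 [0.51 to 1.93] under anti-PD-1, anti-LIF and combo), Cadm1 was lower under anti-LIF (-1.01 [-1.57 to -0.50], -0.93 and short of the fold without the top cell) and Tlr12 was lower under combo (-1.79 [-3.64 to -0.49]).

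The largest ratios not carried by single cells were partly shared between treatments. Over all measured genes, 21 were higher and 29 lower past the fold in all 3 comparisons, which share the control members. Ppp1ca and Zmiz2 were among the higher ones, with 1.02 and 1.75 under combo and 2.40 for Zmiz2 under anti-LIF. Under anti-PD-1 the largest ratios were those of the phosphatase subunits Ppp1ca (2.40 [1.55 to 3.34]) and Ppp1r12c (2.37 [1.26 to 3.65]) and of Zmiz2 (2.38 [1.13 to 3.84]). Ccdc107 (2.29 [0.93 to 3.88]), the interferon-induced Ifi35 (2.22 [1.01 to 3.60]) and the chaperonin subunit Cct7 (2.16 [1.32 to 3.07]) followed. Id3, an inhibitor of helix-loop-helix factors, had no UMI in anti-PD-1 members and 57.6 CPM in control, at least 3.96-fold lower with 3 UMIs set in anti-PD-1. Ube2c had 2 UMIs in anti-PD-1 against 63 in control (-3.33 [-6.72 to -1.73]), and Mpzl2, Mrps7, Fndc3a and Rangap1 had 1 or 2 UMIs against 26 to 43. Under anti-LIF, the inhibitory receptor gene Lilr4b had 340.0 CPM against 26.9 CPM in control (3.62 [2.82 to 4.60]), and Ppp1ca (2.99 [2.22 to 3.90]), Ppp1r12c (2.56 [1.49 to 3.82]), Cldnd1 (2.52 [1.85 to 3.28]) and the glucose transporter Slc2a1 (2.41 [1.11 to 3.99]) were higher. Slamf9 and Xlr had no UMI in anti-LIF and were at least 3.71-fold and 3.58-fold lower, and the cell-cycle kinase gene Cdk6 (-3.20 [-9.11 to -1.19]), Snhg12, Procr and Riox1 had 1 UMI each against 23 to 33 in control. Lilr4b is also abundant in cDC2, with 897 CPM in anti-LIF and 341 CPM in control.

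Under combo, the ribonuclease gene Ear2 (3.16 [2.01 to 4.78]), Ifi209 (3.09 [1.71 to 5.21]), the growth factor receptor Fgfr1 (2.77 [1.73 to 4.14]), Mycl (2.64 [1.32 to 4.49]) and Rrp7a (2.60 [1.14 to 4.74]) were higher. Ear2 had 740.2 CPM in cDC2 of combo and 42.7 CPM in cDC2 of control, and Ear genes are a multigene family whose reads may be shared. Dnase1l3 had 485 CPM in anti-PD-1, 135 in anti-LIF, 53.6 in combo and 399.6 in control (-2.87 [-3.64 to -2.23] under combo), and the serpin Serpinb6b had 441 CPM in anti-PD-1, 224 in anti-LIF, 32.2 in combo and 329 in control (-3.30 [-4.33 to -2.51] under combo). Both were low in the combo members, and both were also below control in anti-LIF. Sema6d, Rnf217 and Smurf1 had no UMI in combo and were at least 5.73-fold, 5.26-fold and 4.78-fold lower, with 3 UMIs set in combo.

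Part of the cell-cycle list was low in the anti-PD-1 members. Of 17 measured genes, 7 were lower and none higher past the fold under anti-PD-1. Their median log2 ratio was -0.90, and the counts were the same without the top cell. The other 10 genes did not pass, and 3 of the 17 lay above 0. The replication gene Pcna, given above, was higher in anti-PD-1 than in control members. Over all measured genes 3.51% were lower under anti-PD-1. Among anti-LIF members 2 were higher and none lower, and among combo members 1 was lower (1 and none, and none, without the top cell). Mki67, a marker of cycling cells, had 38.8 CPM in anti-PD-1, 214 in anti-LIF, 91.1 in combo and 106 in control, with a ratio of -1.37 [-2.73 to -0.37] under anti-PD-1 and 1.02 [0.42 to 1.61] under anti-LIF, and -1.09 and 0.71 without the top cell. Stmn1, a tubulin-binding protein, had 102 CPM in anti-PD-1, 391 in anti-LIF, 249 in combo and 275 in control, and Tubb5 had 223 CPM in anti-PD-1, 559 in anti-LIF, 373 in combo and 534 in control. The anti-PD-1 value was the lowest for each of these 3 genes. In cDC2 the anti-PD-1 values of these genes were also below control: Mki67 had 48.8 CPM in anti-PD-1, 97.3 in anti-LIF, 66.2 in combo and 97.5 in control, Stmn1 had 61.7 CPM in anti-PD-1, 134 in anti-LIF, 109.5 in combo and 341 in control, and Tubb5 had 177 CPM in anti-PD-1, 277 in anti-LIF, 309 in combo and 487 in control.

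**Figure D5:**
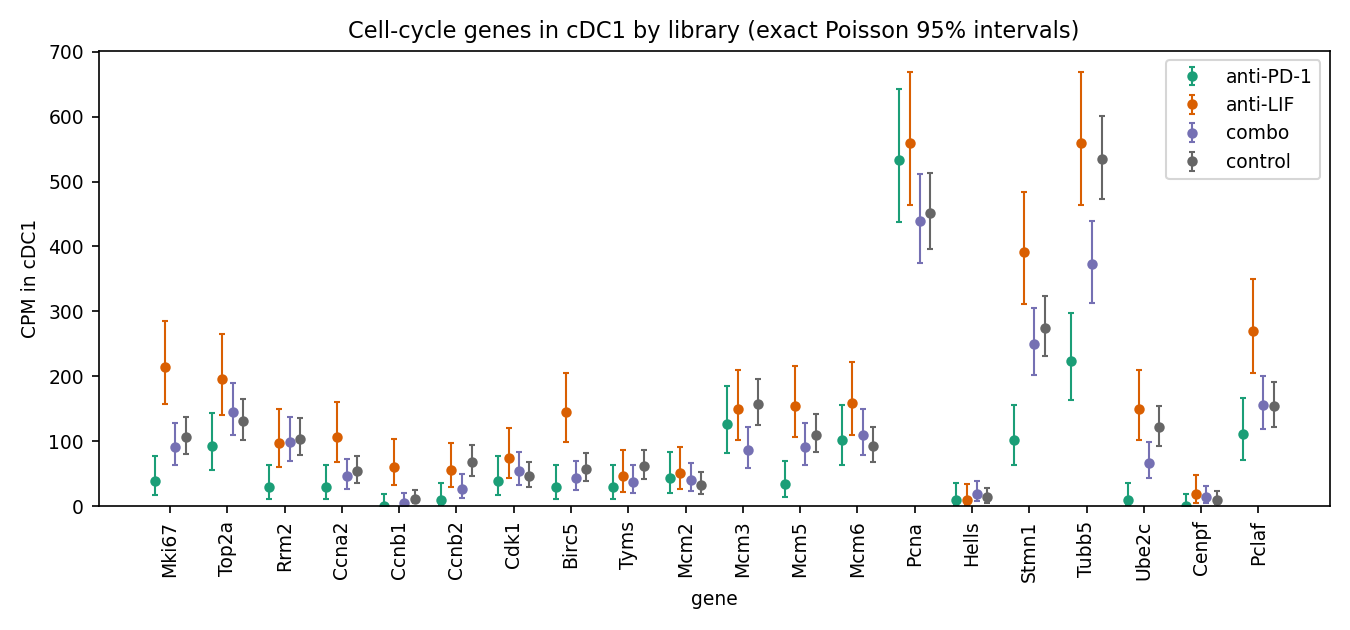
CPM of each cell-cycle gene in the summed cDC1 of the 4 libraries, with exact Poisson 95% intervals for counting error only. The anti-PD-1 points lie lowest for Mki67, Stmn1, Tubb5 and Ube2c but not for Pcna, and the anti-LIF points lie highest for Mki67 and Birc5.

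Cells with at least 2 UMIs of the cell-cycle list were counted after each member was thinned to 3472 UMIs, which left out 17 shallower members in anti-PD-1, 13 in anti-LIF, 5 in combo and 19 in control. They were 15 of 23 in anti-PD-1 (65.2%, 42.7 to 83.6), 22 of 28 in anti-LIF (78.6%, 59.0 to 91.7), 31 of 47 in combo (66.0%, 50.7 to 79.1) and 56 of 65 in control (86.2%, 75.3 to 93.5), all with exact Clopper-Pearson 95% intervals. Unthinned, the counts were 24 of 40 in anti-PD-1, and the shares were 73.2% in anti-LIF, 78.8% in combo and 82.1% in control. The intervals of the treated libraries overlapped that of control. Mature dendritic cells, in which the cell-cycle genes were lower, gave 52 of 81 (64.2%) at the same depth, cDC2 58.5% and macrophages 66.8%, with median UMI counts per library of 2756 to 5182 in these gates against 4400 to 6720 in members. By library the mature cells gave 6 of 7 (85.7%) in anti-PD-1, 52.0% in anti-LIF, 68.6% in combo and 64.3% in control. The member shares of anti-PD-1 and combo were close to the pooled mature share, so no difference in cycling is read from them. With at least 3 UMIs of Xcr1 and Clec9a in the gate, the combo share was 48.7%.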

How the data were processed

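The 4 libraries were analysed from the authors' deposited matrices of UMI counts, with 32285 genes; the deposited barcode and gene lists gave the names. The submitters' processing notes name mm10 and Seurat 4.0.3 without a role, and the aligner and counter are not given in the sources used here. Per the labels' protocols, the sequencer, DNase treatment and removal of debris and dead cells could differ between suspensions. Cells were kept from 200 genes upward where mitochondrial genes took no more than 20% of UMIs. Beside the cDC1 gate, all other gates needed at least 3 H2-Ab1 UMIs and no Cd3 UMI. The cDC2 gate needed at least 2 Cd209a UMIs and no Xcr1 or Clec9a UMI, outside the mature gate. Mature dendritic cells needed Ccr7 and Fscn1 (at least 1 of each, sum at least 3), and both gates at most 2 C1q UMIs. Cells that passed both the mature and the cDC1 gate counted as cDC1 only. Macrophages needed at least 10 C1q UMIs and no Xcr1 or Clec9a UMI. No doublets were called or removed. UMIs were summed per gate and library and tested with edgeR 4.0.16 in R 4.3.3 (filterByExpr, TMM, quasi-likelihood test, library as block, Benjamini-Hochberg adjustment). The block pairs the gates of 1 library, which come from the same suspension. On data simulated for the comparisons with cDC2, mature cells and macrophages, 74%, 94% and 85% of genes changed 4-fold were recovered, and 33%, 32% and 33% of those changed 2-fold. The simulation gave every gene the same spread, so it does not show recovery for genes that vary more between libraries. Treated libraries were compared with control by log2 ratios of CPM for genes with at least 20 UMIs in at least 10 cells, with exact conditional intervals; shares have Clopper-Pearson intervals (scipy 1.17.1). UMIs mark molecules, so intervals cover counting error only. Genes named outside the lists were the 10 highest and 10 lowest log2 fold changes (cDC2), 5 and 5 (mature cells, macrophages) or 6 and 6 (treated over control) among called genes with at least 50 CPM on the higher side and the same sign in all 4 libraries, or with no cell holding over 20% of UMIs. Mitochondrial, ribosomal protein, Gm and Rik genes were not named. A few genes that the rule names are not reported here. Among listed genes the text gives examples. Members and gene lists were chosen with earlier results of these data known. Alternatives were RLE factors, DESeq2 1.42.0, no filter, no block, each library left out, other gate limits, cells without markers of other types, other pseudocounts and other UMI minimums.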

Additional observations from a re-analysis of the deposited data

How the results depend on the processing

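Of the alternatives computed for the main counts and shares, 162 values were labelled the same and 66 moved. Among single genes and lists 1608 were labelled the same, 123 moved, 4 reversed and 2 lost their call. A count was the same within 1.5 times the main count, and a gene against another gate when its sign and call held. A treated ratio was the same inside its main counting interval, whatever its sign, and only ratios past the fold could be labelled reversed. Against cDC2, 480 genes were higher and 613 lower. DESeq2 called 317 higher, no filter on low counts gave 966 lower, and members and cDC2 with no UMI of T cell, B cell, cancer, fibroblast, endothelial or neutrophil markers gave 163 and 193. Leaving out 1 library gave 313 to 469 higher and 367 to 678 lower. With no library block 464 were higher and 615 lower, so the pairing of gates within libraries changed neither count by over 1.5 times. Against mature cells (505 and 640), cells without other markers gave 116 and 152, and leaving out 1 library gave 231 to 426 and 377 to 617. Against macrophages (1260 and 1797), they gave 368 and 652, and leaving out 1 library gave 869 to 1101 and 1360 to 1837. Fewer cells entered these fits. For treated over control, genes higher and lower past the fold in members without other markers were 57 and 64 for anti-PD-1, 69 and 69 for anti-LIF, and 94 and 82 for combo. With at least 50 UMIs they were 55 and 77, 126 and 96, and 109 and 99 for anti-PD-1, anti-LIF and combo, and with no minimum 279 and 253, 520 and 302, and 484 and 352. Without members holding 5 or more such UMIs, a setting chosen after seeing the data like the next one on C1q and Cd3, 114 were lower for anti-LIF and Gbp2 stood at 0.25 there against -2.56. Cxcl10 turned from -1.34 to 0.75 for anti-PD-1 and from 1.05 to -0.13 for combo with at least 1 UMI of Xcr1 and Clec9a, and from 1.24 to -2.70 for anti-LIF with at least 3; the cause was not tested. The cDC1 share of kept cells with at least 1 such UMI was 0.431% in anti-PD-1, 0.485% in anti-LIF, 0.463% in combo and 0.671% in control, and with at least 3 it was 0.200% in anti-LIF and 0.338% in control. Without other markers it was 0.0834%, 0.0642%, 0.0610% and 0.123% in anti-PD-1, anti-LIF, combo and control, without members holding 5 or more such UMIs 0.226% in combo and 0.354% in control, and with at most 10% mitochondrial UMIs 0.651% in control. With no limit on C1q and Cd3 it was 0.479% in anti-PD-1 and 1.08% in control, with log2 ratios over control of -1.60 for anti-LIF and -1.42 for combo. Taken of gated dendritic cells it was 25.0%, 13.8%, 16.1% and 57.1% in anti-PD-1, anti-LIF, combo and control, with log2 ratios of -2.05 for anti-LIF and -1.82 for combo. That share was 34.1%, 21.1%, 22.03% and 66.5% in these libraries with at least 1 UMI of Xcr1 and Clec9a, 9.86% in anti-LIF with at least 3, 10.1% in anti-LIF after thinning to 2000 UMIs, and 23.3% in combo without other markers. The share of combo members with cell-cycle UMIs was 48.7% with at least 3 UMIs of Xcr1 and Clec9a. The calls of Cma1 and Apol7c were lost with DESeq2 (adjusted p 0.0672 and 0.126). Depth limits the treated ratios: the members of a library held 206358 to 520468 UMIs in all.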

Other observations

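Barcodes that passed the Xcr1 and Clec9a limit but held Cd3 UMIs numbered 8 in anti-PD-1, 2 in anti-LIF, 3 in combo and 101 in control, counted with C1q within its limit. The control ones had a median of 8777 UMIs, against 5551.5 in control members, and 693 CPM of Irf8, against 1128 CPM in members. They had 1294 CPM of the T cell receptor genes Trac and Trbc2 together, against 26.9 CPM in members, and 273 CPM of Cd8b1, the CD8 beta chain, against 22.4 CPM of Cd4. Barcodes with more than 2 C1q UMIs and no Cd3 UMI numbered 20 in anti-PD-1, 6 in anti-LIF, 11 in combo and 11 in control. Their Cxcl9 level was 4817 CPM in anti-PD-1, 2696 in anti-LIF, 4562 in combo and 2385 in control, and in each library it was above the level in members, which was 436 CPM in anti-PD-1, 126 in anti-LIF, 85.8 in combo and 621 in control.

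The ligands that act on cDC1 were measured in all other kept cells. Xcl1, the ligand of XCR1, had 8.43 CPM in anti-PD-1, 9.05 in anti-LIF, 4.08 in combo and 23.6 in control. Cells with at least 2 Cd3 UMIs held 73.2% of these Xcl1 UMIs in anti-PD-1, 72.4% in anti-LIF, 43.3% in combo and 62.6% in control, and members held none. Ifng, the gene of interferon gamma, had 11.1 CPM in anti-PD-1, 7.82 in anti-LIF, 4.25 in combo and 35.6 in control. Flt3l, the ligand of FLT3, had 12.5 CPM in anti-PD-1, 12.2 in anti-LIF, 13.7 in combo and 20.7 in control. All 3 sums were highest in the control library, which also held the most cells with Cd3 UMIs. Within cells with at least 2 Cd3 UMIs the order differed. Xcl1 had 95.98 CPM in anti-PD-1, 129 in anti-LIF, 37.0 in combo and 68.2 in control, Ifng had 141 CPM in anti-PD-1, 124 in anti-LIF, 67.7 in combo and 138 in control, and Flt3l had 51.9 CPM in anti-PD-1, 43.3 in anti-LIF, 47.3 in combo and 46.8 in control.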
